A study of Mus musculus with 18 samples.

Results

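The genes of glucose entry, glycolysis and pyruvate fate were followed as a set of 35 named members in sorted bone and marrow cells of mouse controls and conditional knockouts of Pth1r, the receptor of parathyroid hormone. The members were chosen by name, as glucose carriers, the glycolytic enzymes and their isozymes, lactate dehydrogenases and carriers, and pyruvate dehydrogenase with its kinases. All 35 were found among the 54446 gene IDs of the count tables, and all 35 passed the filter on low counts that left 15516 genes for testing. The cells were osterix-derived, that is, they descend from cells that had expressed the osteoprogenitor factor osterix, and were isolated fresh at postnatal day 21. There are 18 RNA-seq libraries in 6 groups of 3. The control genotype is labelled wild type and the other genotype conditional PTH1R KO, with the knockout placed in osteoprogenitors by the series title. Each genotype gave bone marrow stromal cells sorted as GFP-negative and Tm-positive (called marrow here), bone cells sorted as GFP-positive, and bone cells sorted as GFP-negative and Tm-positive (called GFP-negative bone). The labels do not name the Cre line, the floxed allele, the strain or the number of animals, and do not state whether the 3 libraries of each group are from different animals, and the p-values below therefore cover only the spread among these libraries. Subsets are given in the order marrow, GFP-positive bone, GFP-negative bone, and replicates in the order 1, 2, 3.

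Glycolysis splits glucose into pyruvate. Carriers of the Slc2a family admit glucose, hexokinase traps it as a phosphate, and phosphofructokinase commits it to the pathway under the control of an activator made by the Pfkfb enzymes, after which aldolase, triose phosphate isomerase and the enzymes down to pyruvate kinase yield ATP. Pyruvate is then reduced to lactate by lactate dehydrogenase and exported by Slc16a carriers, or oxidised in mitochondria by pyruvate dehydrogenase, which Pdk kinases switch off. Osteoblasts and growth plate chondrocytes are known for a high rate of glycolysis to lactate, parathyroid hormone is known to raise that rate in osteoblasts, and many genes of the pathway are known targets of hypoxia-inducible factors.

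Libraries held 16443595 to 27160257 counted reads, and 3 reads, the limit below which a level cannot be told from 0, correspond to 0.0966 to 0.216 CPM. Levels are given in CPM, the counts scaled to library total and TMM factor, which corrects for the make-up of each library. Pth1r, the targeted gene, stood at 541, 581 and 553 CPM in control marrow and at 373, 337 and 318 CPM in knockout marrow. The 3 knockout libraries of GFP-positive bone read 4038, 3255 and 2725 CPM of Pth1r (controls 4481, 4842 and 5035) and those of GFP-negative bone 1398, 1137 and 1031 CPM (controls 1674, 1669 and 1911). Transcripts of the gene thus remained, at log2 changes of -0.70 ± 0.13, -0.52 ± 0.13 and -0.56 ± 0.13 (SE, edgeR quasi-likelihood test, adjusted p = 0.000195, 0.00226 and 0.00144). Y-linked genes summed to 84.5 to 169 CPM in replicates 1 and 2 and to 1.19 to 3.89 CPM in replicate 3 of every group, so replicate 3 came from other animals than replicates 1 and 2, and this split is the same in all groups.

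Marker genes were summed per library, here as CPM of the library total without the TMM factor. The 8 marrow stroma markers (Cxcl12, Lepr and others) summed to 27716 to 41137 CPM in control marrow and to 382 to 1747 CPM in the control bone subsets, as the marrow label says, and they stood at 55506 to 68255 CPM in knockout marrow. The 10 osteoblast markers summed to 195884 to 266091 CPM in control marrow and 98166 to 136299 CPM in knockout marrow, and to 288713 to 318881 and 395250 to 482481 CPM in GFP-negative bone. Col1a1 (219634 and 290419 CPM on average) and Col1a2 (65850 and 122528) led the sum in GFP-negative bone. There Bglap (6044 and 4323), Bglap2 (1629 and 1153), Alpl (3005 and 2156) and Sp7 (233 and 210) were lower in the knockouts. Ibsp, Runx2, Spp1 and Dmp1 were higher. In GFP-positive bone the 10 chondrocyte markers, not the osteoblast ones, led. They summed to 125061 to 149833 CPM in controls and 279824 to 297807 CPM in knockouts, of which Col2a1 alone made up 91556 and 218855 CPM on average. Matn1 (2435 and 2307), Comp (12711 and 12394) and Snorc (1301 and 1091) were lower on average in these knockouts, and the other chondrocyte markers were higher. All 10 chondrocyte markers, all 10 osteoblast markers and all 8 marrow stroma markers were above 0 in every group. The 12 skeletal muscle markers summed to at most 22.3 CPM and the 10 erythroid markers to at most 516 CPM, both in GFP-positive knockout bone. The 7 osteoclast markers summed to 646 to 847 CPM in control marrow and 255 to 654 CPM in knockout marrow, with Dcstamp at 0 in both, and to 125 to 515 CPM in the bone groups. Mmp9 (458 and 204 CPM on average in control and knockout marrow) and Ctsk (278 and 209) made up most of the marrow sum. Calcr, Oscar, Dcstamp and Atp6v0d2 averaged at most 0.124 CPM there. The 7 megakaryocyte markers reached 406 CPM in 1 knockout marrow library and at most 21.3 CPM in the others. In bulk samples such as these, fewer cells of a type and less RNA per cell cannot be told apart, and the part of these marker differences in the results below was not tested.

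In the knockouts most members were lower. In marrow 18 of the 35 members fell and 6 rose (edgeR quasi-likelihood test, adjusted p under 0.05), where 47.9% of all genes tested passed in either direction (23.1% higher, 24.8% lower). In GFP-positive bone 22 fell and 9 rose, beside 51.3% of all genes (26.0% higher, 25.3% lower). In GFP-negative bone 23 fell and 6 rose, beside 47.1% of all genes (21.5% higher, 25.7% lower). The median log2 change of the members was -0.32, -0.70 and -0.65 in the 3 subsets, against -0.04, 0.03 and -0.07 for all genes tested. The 3 knockout libraries lay wholly above or below the 3 controls for 24, 29 and 31 members, where 54.7%, 57.6% and 54.4% of all genes did. The 3 knockout comparisons rest on different libraries, but the labels do not say whether the subsets of a genotype came from the same animals. Same-numbered libraries within a genotype correlated best with each other. The 3 comparisons therefore cannot be counted as independent.

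Among the members the split ran along the pathway. Of the 4 genes of glucose entry and phosphorylation, 2, 4 and 3 rose in the 3 subsets, and 1, 0 and 1 fell. Related genes outside the members went both ways. The carrier Slc2a10 fell in all 3 subsets (log2 -0.39, -0.30 and -0.42). Slc2a5 (-0.85 and -1.89) and the glucokinase Adpgk (-0.61 and -0.60) fell in both bone subsets. Slc2a4 rose in marrow and GFP-positive bone (1.55 and 1.43), and Slc2a13 in both bone subsets (0.86 and 0.90). Of the 10 genes from aldolase to pyruvate kinase, 7, 9 and 9 fell and 1, 1 and 0 rose, at median log2 changes of -0.61, -1.38 and -1.58. Of the 4 lactate genes, 3, 3 and 4 fell and 0 rose in each subset. Across subsets, 15 members fell in all 3, namely Gpi1, Pfkp, Aldoc, Tpi1, Gapdh, Pgk1, Pgam1, Eno3, Pkm, Ldha, Slc16a3, Pdk3, Pdhb, Bpgm and Pgm2. Only Slc2a3, Hk2 and Pfkfb3 rose in all 3 subsets, and 6 members moved in opposite directions in at least one pair of subsets (Slc2a1, Hk1, Pfkl, Aldoa, Pdk2 and Gpd2). Pfkm, Pfkfb2 and Dlat passed the test in no subset.

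**Figure D1:**
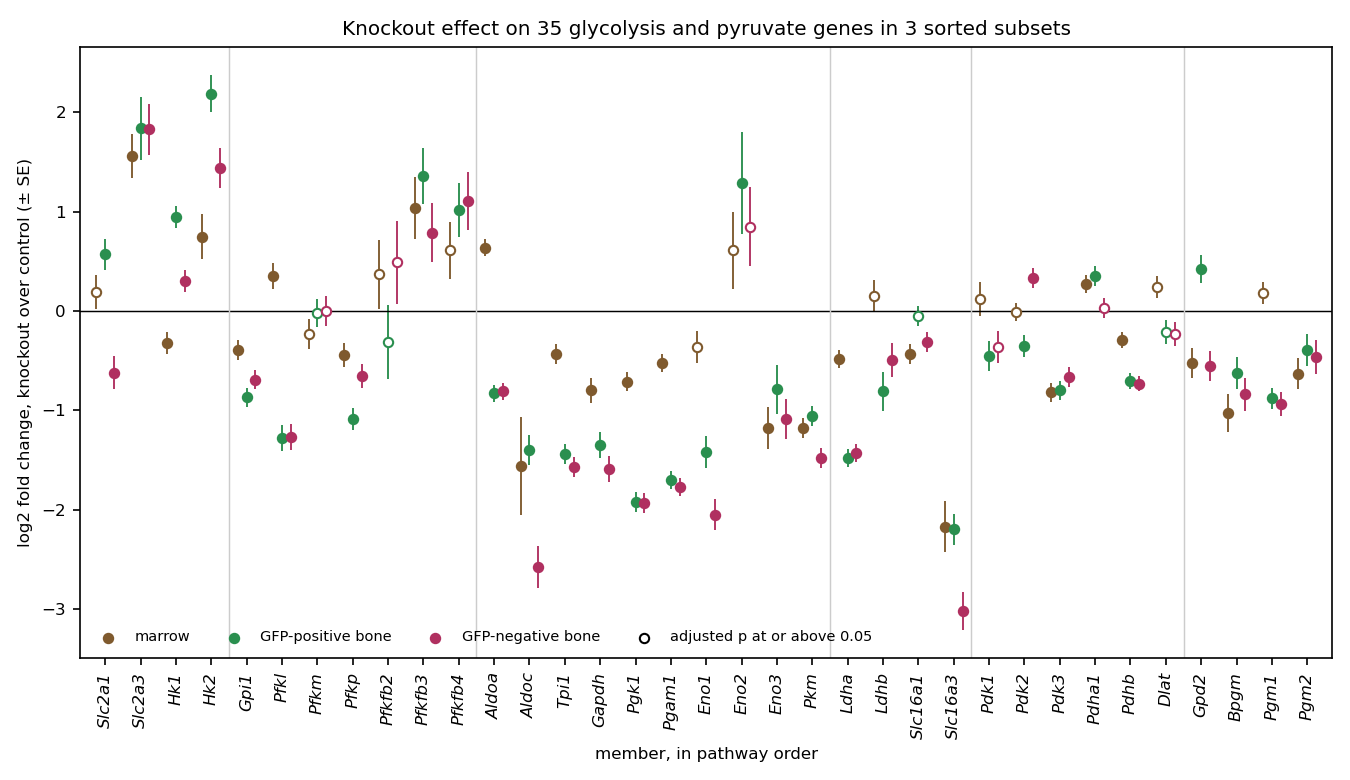
Log2 fold change of knockout over control (vertical axis, points, bars ± SE) for each of the 35 members in pathway order, in marrow, GFP-positive bone and GFP-negative bone; open circles did not pass the adjusted p of 0.05. Slc2a3, Hk2 and Pfkfb3 lie above 0 in all 3 subsets, and the genes from Tpi1 to Pgam1 below 0 in all 3.

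Pgk1, Pgam1, Ldha and Slc16a3 are from the 15 members that fell in all 3 subsets, and Hk2 and Pfkfb3 from the 3 that rose in all 3. Promoter stretches are shown for these members alone. Each is the 160 bases just before the RefSeq transcript start (GRCm38.p6, which is mm10), read 5′ to 3′ on the gene's strand. Capitals mark ACGTG, the core of the hypoxia response element, read on either strand (ACGTG or CACGT). An E-box, CACGTG, holds both.
Pgk1 (chrX:106186940-106187099, plus strand): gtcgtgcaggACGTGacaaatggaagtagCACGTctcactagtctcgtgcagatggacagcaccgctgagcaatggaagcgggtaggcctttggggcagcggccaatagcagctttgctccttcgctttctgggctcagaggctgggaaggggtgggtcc
Pgam1 (chr19:41911711-41911870, plus strand): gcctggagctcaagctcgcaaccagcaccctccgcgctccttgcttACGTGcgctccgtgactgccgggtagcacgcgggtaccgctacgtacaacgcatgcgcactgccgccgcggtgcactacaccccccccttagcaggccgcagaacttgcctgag
Ldha (chr7:46845644-46845803, plus strand): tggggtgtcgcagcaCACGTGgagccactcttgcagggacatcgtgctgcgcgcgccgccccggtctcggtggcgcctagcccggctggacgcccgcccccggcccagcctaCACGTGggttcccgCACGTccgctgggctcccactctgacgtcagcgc
Slc16a3 (chr11:120948907-120949066, plus strand): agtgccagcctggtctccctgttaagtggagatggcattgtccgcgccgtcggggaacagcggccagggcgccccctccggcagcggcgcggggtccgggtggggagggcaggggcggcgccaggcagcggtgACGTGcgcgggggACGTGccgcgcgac
Hk2 (chr6:82774455-82774614, minus strand): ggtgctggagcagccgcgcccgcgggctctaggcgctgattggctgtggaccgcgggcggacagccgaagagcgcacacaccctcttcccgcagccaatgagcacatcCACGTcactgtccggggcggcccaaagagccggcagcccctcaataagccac
Pfkfb3 (chr2:11553930-11554089, minus strand): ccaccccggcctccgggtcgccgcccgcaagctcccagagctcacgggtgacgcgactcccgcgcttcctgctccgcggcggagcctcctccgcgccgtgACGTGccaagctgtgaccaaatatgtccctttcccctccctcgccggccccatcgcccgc

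Each of the 6 stretches, from members that fell and members that rose, held these letters. Other members of the same groups were not printed, so this is not a tally. In the windows described next, Tpi1, which also fell in all 3 subsets, held no ACGTG. Those of Gapdh and Aldoc lay after the start (bases 42 and 27), outside a stretch of this kind. Over windows of 250 bases before to 50 after each start, 21 of the 34 members with a window held ACGTG on either strand (61.8%), where 21.8% of 27025 genes did. A gene with several windows has more room for a match. By window, 25 of 51 windows of members held ACGTG (49.0%), where 19.6% of 32851 windows did. The genes compared with include genes not tested here. CACGTG, which contains ACGTG, was found in 6 members (17.6%, all genes 8.09%), the GC box GGGCGG in 26 (76.5%, all genes 38.2%) and TATAAA in 3 (8.82%, all genes 15.7%), each on both strands. By direction, ACGTG was held by 10 of the 15 members that fell in all 3 subsets, by both Hk2 and Pfkfb3 of those that rose in all 3 (Slc2a3 had no window), and by 5 of the 6 that moved in opposite directions. It was held by 0 of the 3 that rose in some subsets only, by 2 of the 5 that fell in some only, and by Pfkm and Pfkfb2 of the 3 that passed no knockout test. A match is a description of letters and not of a bound site.

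In control mice the levels were ordered by subset before any knockout. GFP-positive bone was highest, GFP-negative bone next and marrow lowest for 25 of the 35 members. Between the bone subsets 22 members were higher and 5 lower in GFP-positive bone (edgeR quasi-likelihood test), beside 40.0% of all genes tested (18.2% higher, 21.8% lower). Against marrow, GFP-negative bone had 21 members higher and 3 lower, beside 39.3% of all genes (21.1% higher, 18.2% lower), and GFP-positive bone had 25 higher and 5 lower, beside 62.8% (29.8% higher, 33.0% lower). The 3 libraries of each subset lay apart for 30, 27 and 31 members, where 50.1%, 50.2% and 67.6% of all genes did. Median log2 differences of the members were 0.97, 0.42 and 1.26 in these 3 comparisons, against -0.04, 0.03 and -0.05 for all genes. With library totals alone the median gene moved by 0.19, -0.28 and -0.09, the share of higher among all calls went from 45.5% to 62.2%, from 53.7% to 27.6% and from 47.5% to 43.0%, and members stood at 25 higher and 4 lower, 15 and 5, and 24 and 6. The share of all genes called under that scaling is not given here. Together the members took 1.5625% to 1.6703% of all reads in control GFP-positive bone, 0.5428% to 0.58% in control GFP-negative bone and 0.323% to 0.3614% in control marrow, and 0.5417% to 0.6163%, 0.1927% to 0.221% and 0.31% to 0.3707% in the knockouts.

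The steepest gradients belonged to the lactate exporter Slc16a3 (MCT4) and to Aldoc, the aldolase isozyme best known from brain. Slc16a3 read 325, 344 and 332 CPM in control GFP-positive bone, 83.8, 79.9 and 76.6 CPM in GFP-negative bone and 5.77, 9.2 and 6.81 CPM in marrow. Aldoc read 78.9, 96.2 and 68.1, then 20.7, 19.7 and 17, then 0.749, 1.24 and 0.619 CPM in the same order. Neither gene overlapped between any pair of subsets, and from marrow to GFP-positive bone they differed by 5.53 ± 0.20 and 6.53 ± 0.23 on the log2 scale (SE, edgeR, adjusted p = 1.91e-14 and 1.1e-14). Per kilobase of merged exons, the highest mean levels in control GFP-positive bone were those of Ldha (1140 ± 34.8 CPM per kb, SD, n = 3), Pkm (503 ± 15.5) and Eno1 (485 ± 8.44). In control marrow Ldha (142 ± 1.52), Aldoa (101 ± 8.4) and Ldhb (82 ± 14.5) led, and Ldhb and Eno1 (74.9 ± 4.84) differed there by less than the SD of Ldhb.

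A few members ran the other way. Slc2a3, Ldhb and Pdk2 were highest in control marrow, then GFP-negative bone, then GFP-positive bone, and every step passed the test. Ldhb, the lactate dehydrogenase subunit that favours use of lactate, read 153, 108 and 125 CPM in control marrow, 68.6, 51.4 and 55.2 in GFP-negative bone and 24.8, 21.3 and 16.8 in GFP-positive bone. Pdha1 and Dlat had the same order, but only the Pdha1 difference between GFP-positive bone and marrow passed (-0.41 ± 0.09, adjusted p = 0.000892). No difference of Pdk3 between control subsets passed (adjusted p = 0.278, 0.174 and 0.781). The Aldoa and Pdhb differences between GFP-negative bone and marrow (0.26 ± 0.09 and 0.22 ± 0.08) turned to -0.03 and -0.06 under scaling by library totals only, and each lost its call when any of 5 of the 6 libraries was left out.

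**Figure D2:**
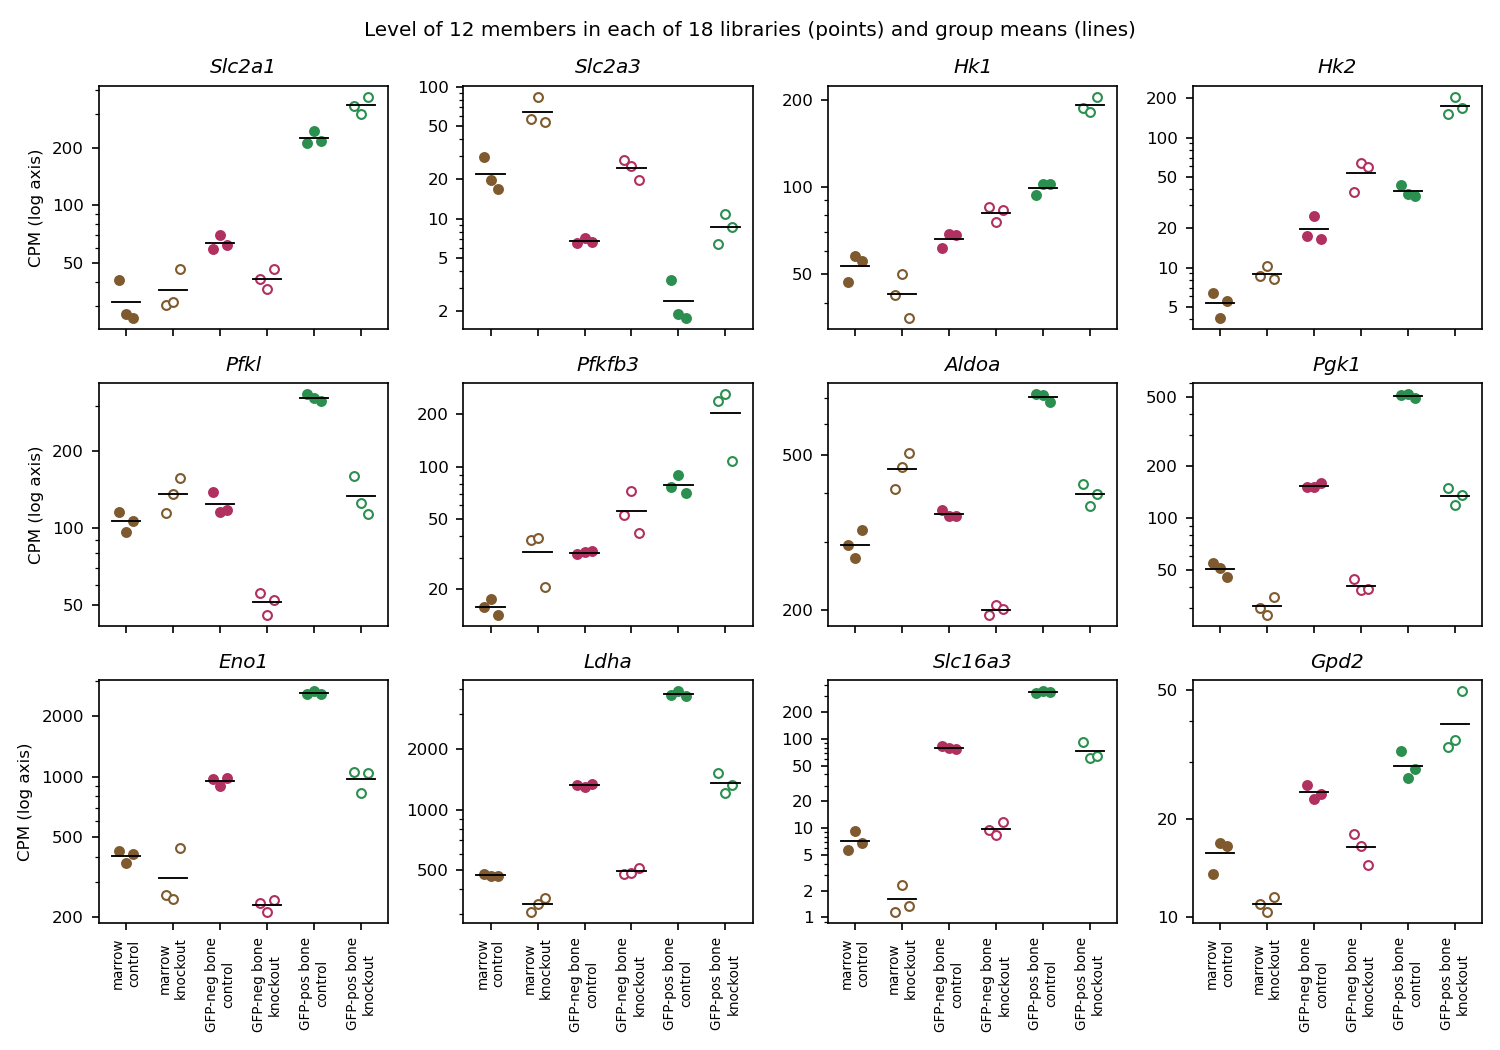
Level of 12 members in each library (points, CPM on log axes, filled for controls and open for knockouts) with group means as lines. Pgk1, Ldha and Slc16a3 fall from GFP-positive bone to marrow in controls and are lower in every knockout group, while Slc2a3 and Hk2 are higher in every knockout group.

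Of the glucose carriers, Slc2a3 rose in every subset and Slc2a1 only in GFP-positive bone. Slc2a3 (GLUT3), a carrier of high affinity, read 29.3, 19.6 and 16.7 CPM in the controls and 56.6, 83.6 and 54.4 CPM in the knockouts of marrow. Its levels in GFP-positive bone were 3.42, 1.89 and 1.78 against 6.49, 10.8 and 8.71 CPM, and in GFP-negative bone 6.53, 7.19 and 6.71 against 28.1, 25.1 and 19.5 CPM. All knockout libraries lay above all controls in each subset. Slc2a3 rose by 1.56 ± 0.22, 1.84 ± 0.32 and 1.83 ± 0.26 on the log2 scale (SE, edgeR quasi-likelihood test, adjusted p = 1.17e-05, 8.05e-05 and 1.35e-05). Slc2a1 (GLUT1), the carrier with the higher level per exon length in every control subset, read 211, 244 and 215 against 329, 298 and 366 CPM in GFP-positive bone. In GFP-negative bone it read 59.1, 70.3 and 62 against 41.4, 36.6 and 46.7 CPM, and in marrow 40.8, 27.4 and 26.1 against 30.3, 31.4 and 47 CPM. The groups did not overlap in either bone subset, with the knockouts above in GFP-positive and below in GFP-negative bone, and they overlapped in marrow. The changes were 0.19 ± 0.17, 0.57 ± 0.16 and -0.62 ± 0.17 (adjusted p = 0.375, 0.00637 and 0.00577), and the rise in GFP-positive bone was 0.18 (adjusted p = 0.375) under scaling by library totals only. The knockout effect on Slc2a1 differed between the bone subsets by 1.19 ± 0.23 (adjusted p = 0.00448).

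Both hexokinases rose in GFP-positive bone, Hk2 the more. Hk2, the inducible hexokinase of glycolytic tissues, read 43.4, 36.8 and 35.4 against 151, 205 and 170 CPM there. In GFP-negative bone Hk2 read 17.4, 25.1 and 16.5 against 38.1, 63.3 and 59.1 CPM, and in marrow 6.33, 4.11 and 5.53 against 8.6, 10.2 and 8.13 CPM. No knockout library of Hk2 fell within the control range in any subset. Hk2 rose by 0.75 ± 0.23, 2.19 ± 0.19 and 1.44 ± 0.20 on the log2 scale (SE, edgeR, adjusted p = 0.0125, 2.75e-08 and 7.7e-06), and by 1.43 ± 0.30 more in GFP-positive bone than in marrow (adjusted p = 0.00273). Hk1, the hexokinase of most tissues, went up in bone and down in marrow. It read 93.5, 102 and 102 against 187, 181 and 204 CPM in GFP-positive bone, 61.7, 68.8 and 68.2 against 85.4, 75.8 and 83.2 CPM in GFP-negative bone and 47, 58.1 and 55.7 against 42.6, 50.2 and 35.5 CPM in marrow. Controls and knockouts were apart in both bone subsets and overlapped in marrow. The Hk1 changes were -0.32 ± 0.11, 0.95 ± 0.11 and 0.30 ± 0.11 (adjusted p = 0.0238, 8.92e-07 and 0.0355), and the effect in GFP-positive bone exceeded that in marrow by 1.27 ± 0.16 (adjusted p = 2.46e-05). The smaller calls were fragile. The marrow Hk1 call was lost without control replicate 2 or 3 or knockout replicate 1 or 3 (adjusted p 0.0628 to 0.146), that of Hk1 in GFP-negative bone without any library but knockout replicate 2 (0.0531 to 0.13), and the marrow Hk2 call without replicate 2 of either genotype (0.0551 and 0.0742).

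At the isomerase and phosphofructokinase steps, Gpi1 and Pfkp fell in every subset, Pfkl fell in bone alone and the activator enzyme Pfkfb3 rose. Gpi1, glucose phosphate isomerase, read 58.4, 67.1 and 78.1 against 50.4, 49.2 and 55.9 CPM in marrow, 145, 142 and 139 against 85.4, 75.4 and 72.5 CPM in GFP-positive bone and 82.3, 79.9 and 81.5 against 48.4, 46.9 and 55.5 CPM in GFP-negative bone. The groups were apart in all 3 subsets, at -0.39 ± 0.10, -0.87 ± 0.10 and -0.69 ± 0.10 on the log2 scale (SE, edgeR, adjusted p = 0.00427, 1.08e-06 and 2.26e-05). Pfkl, the liver-type phosphofructokinase and the isozyme with the highest level per exon length in the controls of each subset, fell in both bone subsets. It read 334, 321 and 315 against 160, 125 and 114 CPM in GFP-positive bone and 139, 116 and 118 against 55.9, 45.9 and 52.5 CPM in GFP-negative bone, but 116, 96.8 and 107 against 115, 136 and 157 CPM in marrow. The bone groups were far apart and the marrow groups overlapped. Pfkl changed by 0.35 ± 0.13, -1.28 ± 0.13 and -1.27 ± 0.13 (adjusted p = 0.0312, 1.79e-07 and 3.63e-07). The knockout effects in the bone subsets lay below that in marrow by -1.63 ± 0.18 and -1.62 ± 0.18 (adjusted p = 7.4e-06 and 2.62e-05). The marrow rise lost its call without replicate 2 or 3 of either genotype (adjusted p 0.0626 to 0.163).

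Pfkp, the platelet-type isozyme, read 28.2, 28 and 32.9 against 23.1, 23.3 and 19 CPM in marrow, 71.2, 76 and 71.6 against 31.9, 31.8 and 39.6 CPM in GFP-positive bone and 34.8, 28.8 and 30.4 against 21.2, 19.4 and 19 CPM in GFP-negative bone. Its knockout libraries lay below all controls in each subset, at log2 changes of -0.44 ± 0.12, -1.09 ± 0.11 and -0.65 ± 0.12 (SE, edgeR, adjusted p = 0.00438, 2.8e-07 and 0.000209). Pfkp shares 748 identical bases with Pitrm1, another gene, whose reads over its whole length were 41.0% to 75.9% of the reads of the pair. This share is not one of reads in the shared bases, which were not counted apart. How far the level of Pfkp depends on such reads was not tested. Pfkm, the muscle isozyme, passed in no subset (-0.23 ± 0.15, -0.02 ± 0.14 and 0.00 ± 0.15, adjusted p = 0.2, 0.918 and 0.994). Pfkfb3, the bifunctional enzyme with the highest level of the 3 measured, read 15.8, 17.5 and 14.3 against 38.2, 39 and 20.5 CPM in marrow and 76, 89.8 and 71 against 237, 259 and 108 CPM in GFP-positive bone. In GFP-negative bone it read 31.7, 32.4 and 32.8 against 53.1, 72.2 and 41.9 CPM. Knockouts lay above controls in all 3, and replicate 3 was the lowest knockout library in each. Pfkfb3 changed by 1.04 ± 0.31, 1.36 ± 0.28 and 0.79 ± 0.30 (adjusted p = 0.0107, 0.000819 and 0.0394). The call in GFP-negative bone was lost when any library but knockout replicate 3 was left out (adjusted p 0.0618 to 0.182). Pfkfb4 rose in the bone subsets (1.02 ± 0.27 and 1.11 ± 0.29, adjusted p = 0.00419 and 0.00359) and did not pass in marrow (0.61 ± 0.29, adjusted p = 0.09). Pfkfb2 read 0.97 to 2.88 CPM in single libraries and passed in none (adjusted p = 0.411, 0.524 and 0.37).

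The run from aldolase to pyruvate kinase fell almost as a whole in bone. Aldoa, the main aldolase, was the exception in marrow, where it rose. It read 294, 272 and 321 against 410, 466 and 508 CPM in marrow, 718, 716 and 686 against 422, 371 and 397 CPM in GFP-positive bone and 361, 349 and 350 against 195, 207 and 202 CPM in GFP-negative bone. The groups were apart in each subset, above in marrow and below in bone. Aldoa changed by 0.64 ± 0.09, -0.83 ± 0.09 and -0.81 ± 0.09 on the log2 scale (SE, edgeR quasi-likelihood test, adjusted p = 7.52e-06, 2.74e-07 and 5.39e-07), and the bone effects lay below the marrow effect by -1.48 ± 0.12 and -1.45 ± 0.12 (adjusted p = 3.43e-07 and 3.77e-06). Aldoc fell in all 3 subsets, from 20.7, 19.7 and 17 to 2.74, 3.97 and 2.84 CPM in GFP-negative bone and from 78.9, 96.2 and 68.1 to 36.2, 28 and 27.7 CPM in GFP-positive bone. In marrow Aldoc stood at 0.749, 1.24 and 0.619 CPM in controls and 0.258, 0.187 and 0.47 CPM in knockouts, close to the 3-read limit. It changed by -1.56 ± 0.49, -1.40 ± 0.15 and -2.58 ± 0.21 (adjusted p = 0.0133, 4.4e-07 and 2.4e-08), and fell more in GFP-negative than in GFP-positive bone (difference 1.18 ± 0.26, adjusted p = 0.011). The marrow call of Aldoc was lost without replicate 2 of either genotype (adjusted p 0.0602 and 0.0954).

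Tpi1, triose phosphate isomerase, read 152, 160 and 160 against 102, 111 and 137 CPM in marrow. In GFP-positive bone Tpi1 read 939, 980 and 906 against 378, 314 and 352 CPM, and in GFP-negative bone 347, 358 and 391 against 121, 119 and 128 CPM. Knockouts lay below controls in all 3, by far more in bone. The changes of Tpi1 were -0.43 ± 0.10, -1.44 ± 0.10 and -1.57 ± 0.10 (SE, edgeR, adjusted p = 0.00158, 2.84e-09 and 2.48e-09). Gapdh, which oxidises the triose phosphate, read 245, 271 and 275 against 149, 130 and 176 CPM in marrow, 1186, 1247 and 1120 against 533, 379 and 481 CPM in GFP-positive bone and 518, 499 and 546 against 181, 148 and 191 CPM in GFP-negative bone. All knockouts were below all controls of their subset, and replicate 2 was the lowest knockout in each. Gapdh changed by -0.80 ± 0.13, -1.35 ± 0.13 and -1.59 ± 0.13 (adjusted p = 4.22e-05, 7.55e-08 and 2.42e-08). Pgk1, the first ATP-yielding enzyme and the holder of a pair of capital runs in its promoter stretch above, read 54.4, 51.3 and 45.2 against 30.1, 27.5 and 34.8 CPM in marrow. It read 513, 520 and 493 against 148, 119 and 136 CPM in GFP-positive bone and 151, 151 and 158 against 44, 38.3 and 38.6 CPM in GFP-negative bone. The knockout level in GFP-positive bone thus lay just under that of GFP-negative bone in controls. Pgk1 changed by -0.71 ± 0.10, -1.92 ± 0.10 and -1.93 ± 0.10 (adjusted p = 1.62e-05, 9.07e-11 and 3.57e-10).

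Pgam1, phosphoglycerate mutase, read 49.9, 47.1 and 50.1 against 33, 32.4 and 37.4 CPM in marrow and 332, 361 and 343 against 119, 103 and 97.7 CPM in GFP-positive bone. In GFP-negative bone it read 115, 117 and 124 against 32.9, 34.1 and 37.8 CPM. The groups were apart in each subset, at log2 changes of -0.52 ± 0.09, -1.70 ± 0.09 and -1.77 ± 0.09 (SE, edgeR, adjusted p = 0.000133, 9.59e-11 and 2.99e-10). Pkm is pyruvate kinase, the last enzyme of the run. It read 250, 298 and 277 against 113, 130 and 120 CPM in marrow, 2555, 2563 and 2425 against 1383, 1128 and 1103 CPM in GFP-positive bone and 998, 952 and 946 against 364, 325 and 350 CPM in GFP-negative bone. No library overlapped. Pkm changed by -1.18 ± 0.10, -1.06 ± 0.10 and -1.48 ± 0.10 (adjusted p = 2.94e-08, 5.12e-08 and 3.12e-09), and the effects in GFP-positive bone and marrow differed by 0.12 ± 0.14 (adjusted p = 0.595), a value that became -0.40 (adjusted p = 0.0193) with library totals alone. The counts are per gene, so the splice forms of Pkm were not told apart.

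Enolase did not move as a family. Eno3, the muscle enolase, fell in all 3 subsets, from 10.9, 19.1 and 14.1 to 6.76, 6.69 and 5.83 CPM in marrow, from 7.64, 7.18 and 6.74 to 5.07, 4.27 and 2.81 CPM in GFP-positive bone and from 21.9, 31.4 and 30.8 to 11.3, 14.5 and 14 CPM in GFP-negative bone. Its changes were -1.18 ± 0.21, -0.79 ± 0.25 and -1.09 ± 0.20 (SE, edgeR, adjusted p = 0.00013, 0.0121 and 0.000161), and the call in GFP-positive bone was lost without knockout replicate 3 (adjusted p 0.059). Eno2, the neuronal enolase, was low everywhere (0.456 to 3.2 CPM in single libraries) and rose in GFP-positive bone alone (1.29 ± 0.51, adjusted p = 0.0421), a call lost without control replicate 1 or 2 or knockout replicate 2 or 3. Eno1, the ubiquitous enolase, read 2587, 2663 and 2582 against 1059, 831 and 1038 CPM in GFP-positive bone and 971, 899 and 988 against 236, 213 and 243 CPM in GFP-negative bone. In marrow Eno1 read 425, 374 and 410 against 259, 245 and 440 CPM. Knockout replicate 3 of marrow was the highest of these 6 libraries, above all controls, while replicates 1 and 2 were below all controls. Eno1 changed by -0.36 ± 0.16, -1.42 ± 0.16 and -2.05 ± 0.16 (adjusted p = 0.0713, 6.88e-07 and 2.4e-08), and without knockout marrow replicate 3 the marrow change was -0.67 (adjusted p = 5.59e-05).

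Some of these genes have near-identical copies that compete for reads, and the copies did not take the same share in all libraries. Reads on the 3 copies of Eno1 made up 11.1% to 12.1% of the reads of Eno1 and its copies in the 9 control libraries. In replicate 3 of the knockouts the share was 11.5% to 12.5%, but in knockout replicates 1 and 2 it was 22.3% to 23.6% in every subset. Copies of Gapdh, 78 in number, took 1.03% to 1.77% in controls and 7.37% to 7.73% in knockout replicate 2 of all 3 subsets and in knockout marrow replicate 3, while the other 5 knockout libraries had 1.21% to 2.01%. These shares thus split the knockout libraries by replicate number and not by subset, with 1 exception in marrow. With the reads of the 2 copies that are over 99% identical added to Eno1 (a check chosen after seeing the data), its changes were -0.24 ± 0.13, -1.29 ± 0.13 and -1.91 ± 0.14 (SE, edgeR, adjusted p = 0.142, 2.59e-07 and 7.33e-09). Copies of Tpi1, Pgk1, Pgam1 and Pkm took at most 1.253% of reads. Whether the copies or the way reads with several matches were counted set these levels was not tested.

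**Figure D3:**
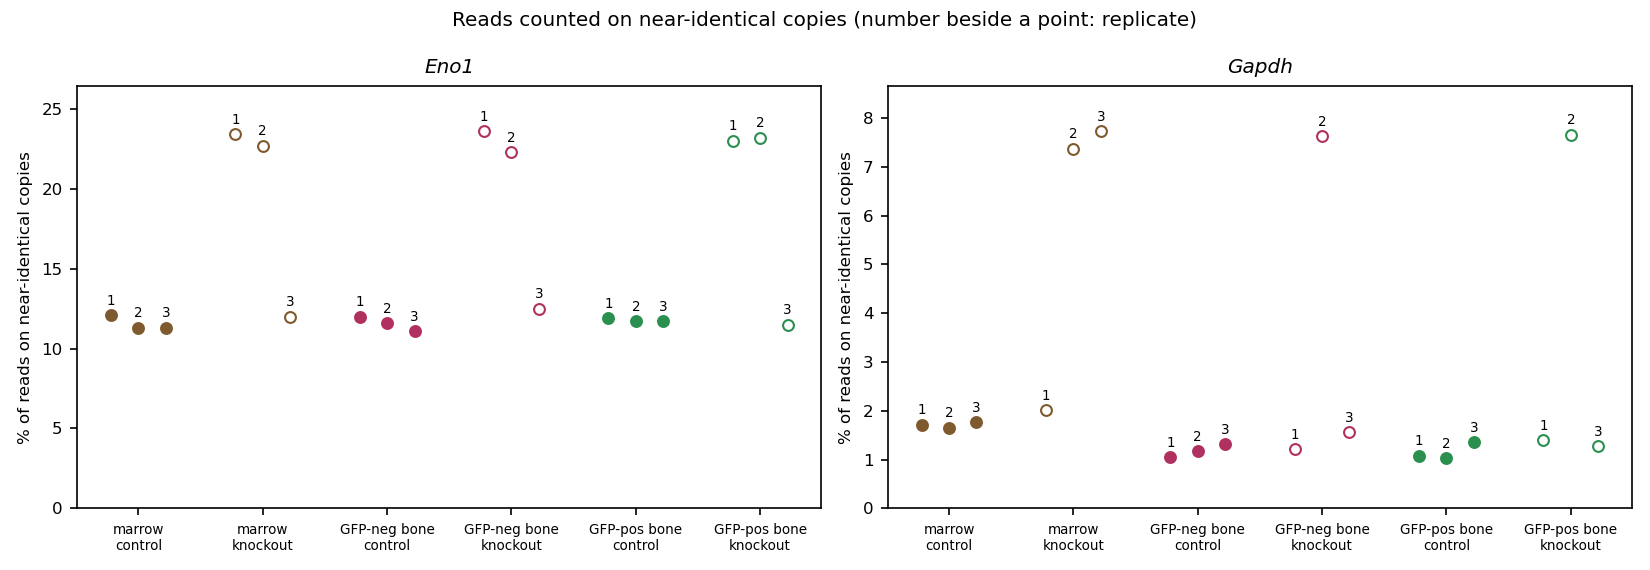
Share of reads (percent, vertical axis) counted on near-identical copies of Eno1 and of Gapdh, out of the reads of the gene and its copies, in each of the 18 libraries (points, numbered by replicate, filled for controls, open for knockouts). Knockout replicates 1 and 2 stand at 22.3% to 23.6% for Eno1 in all 3 subsets, and replicate 2 above 7% for Gapdh.

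Of the 4 genes of lactate production and export, Ldha and Slc16a3 fell in all 3 subsets and Ldhb and Slc16a1 in 2 each. Ldha, the subunit that favours lactate formation, read 3734, 3918 and 3706 against 1530, 1212 and 1334 CPM in GFP-positive bone. In GFP-negative bone Ldha read 1331, 1292 and 1340 against 476, 483 and 510 CPM, and in marrow 474, 466 and 465 against 308, 336 and 362 CPM. The groups were apart in all 3 subsets, and the knockouts of GFP-positive bone had about the level of the controls of GFP-negative bone. Ldha changed by -0.48 ± 0.09, -1.48 ± 0.09 and -1.43 ± 0.09 on the log2 scale (SE, edgeR quasi-likelihood test, adjusted p = 0.000186, 5.67e-10 and 1.64e-09), and the bone effects lay below the marrow effect by -1.0 ± 0.13 and -0.95 ± 0.13 (adjusted p = 2.75e-05 and 0.000104). Slc16a3 (MCT4), the carrier of lactate-exporting cells, fell most in fold among the members in marrow and in both bone subsets. It read 325, 344 and 332 against 92.7, 60.7 and 64.6 CPM in GFP-positive bone, 83.8, 79.9 and 76.6 against 9.56, 8.4 and 11.8 CPM in GFP-negative bone and 5.77, 9.2 and 6.81 against 1.16, 2.32 and 1.36 CPM in marrow. The highest knockout library was below the lowest control by a wide gap in each subset. The falls of Slc16a3 were 4.49-fold, 4.59-fold and 8.13-fold, log2 -2.17 ± 0.26, -2.20 ± 0.16 and -3.02 ± 0.19 (adjusted p = 1.75e-06, 6.27e-09 and 1.64e-09). The promoter stretches of both genes are printed above.

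Ldhb read 24.8, 21.3 and 16.8 against 12, 12.7 and 11.1 CPM in GFP-positive bone and 68.6, 51.4 and 55.2 against 46.6, 41.7 and 35.8 CPM in GFP-negative bone, where the groups were apart. In marrow it read 153, 108 and 125 against 165, 107 and 157 CPM, and the groups overlapped. Ldhb changed by -0.81 ± 0.20 and -0.49 ± 0.17 in the bone subsets (SE, edgeR, adjusted p = 0.00183 and 0.0265) and had a marrow value of 0.15 ± 0.16 (adjusted p = 0.469). The call in GFP-negative bone was lost without control replicate 1 or knockout replicate 2 or 3 (adjusted p 0.0619 to 0.136). A copy of Ldhb took 4.35% to 7.75% of the reads of the pair. Slc16a1 (MCT1), the carrier found in most tissues, read 46.8, 47.4 and 42.1 against 37.8, 31.9 and 31.1 CPM in marrow, 189, 181 and 167 against 169, 161 and 189 CPM in GFP-positive bone and 81.8, 79.2 and 69.5 against 58.1, 61.2 and 66.2 CPM in GFP-negative bone. It fell in marrow and GFP-negative bone, with values of -0.43 ± 0.10, -0.05 ± 0.10 and -0.31 ± 0.10 (adjusted p = 0.00167, 0.682 and 0.015). The GFP-negative bone call needed control replicates 1 and 2 and knockout replicate 1 (adjusted p 0.0527 to 0.0807 without one of them).

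Of the 6 genes of pyruvate dehydrogenase and its kinases 2, 4 and 2 fell and 1, 1 and 1 rose. Pdk3 was the kinase that fell in every subset. It read 92.7, 90.3 and 74.3 against 42.7, 52 and 51.2 CPM in marrow, 87.1, 87.2 and 76.9 against 50.2, 46 and 48 CPM in GFP-positive bone and 78.1, 78 and 71 against 51.3, 45.4 and 47.1 CPM in GFP-negative bone. The groups were apart throughout, at -0.82 ± 0.10, -0.80 ± 0.10 and -0.66 ± 0.10 (SE, edgeR, adjusted p = 2.88e-06, 3.14e-06 and 3.85e-05). Pdk2 rose in GFP-negative bone, from 35.9, 37.4 and 35.1 to 43.7, 47.6 and 45.2 CPM, and fell in GFP-positive bone, from 20.1, 19.7 and 21 to 17.4, 15.7 and 14.2 CPM, while in marrow it read 49.2, 54.6 and 60.8 against 53.3, 52.8 and 56.8 CPM. The bone groups did not overlap and the marrow groups did. Its values were -0.01 ± 0.09, -0.35 ± 0.11 and 0.33 ± 0.10 (adjusted p = 0.923, 0.0092 and 0.00903), and the bone effects differed by -0.69 ± 0.14 (adjusted p = 0.00728). Pdk1, a kinase known to respond to hypoxia, fell in GFP-positive bone (-0.45 ± 0.15, adjusted p = 0.0166), a call lost without replicate 3 of either genotype (0.0937 and 0.10). It did not pass in marrow or GFP-negative bone (adjusted p = 0.572 and 0.0705).

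Of the pyruvate dehydrogenase subunits, Pdhb fell in every subset, Pdha1 rose in marrow and GFP-positive bone, and Dlat passed nowhere. Pdhb read 76.8, 75.1 and 72.1 against 63.8, 62.4 and 56.4 CPM in marrow, 120, 115 and 115 against 76.8, 73.1 and 64.1 CPM in GFP-positive bone and 90.5, 88.8 and 82.3 against 53.5, 51.5 and 52.7 CPM in GFP-negative bone, with no overlap in any subset. Pdhb changed by -0.29 ± 0.08, -0.70 ± 0.08 and -0.73 ± 0.08 (SE, edgeR, adjusted p = 0.0065, 1.08e-06 and 1.12e-06). Pdha1, its partner in the same subunit complex, rose by 0.27 ± 0.09 in marrow and 0.35 ± 0.10 in GFP-positive bone (adjusted p = 0.0232 and 0.00485), the second a value of -0.04 (adjusted p = 0.827) with library totals alone. The marrow call was lost without control replicate 2 or 3 or knockout replicate 1 (adjusted p 0.0506 to 0.123). Dlat, the acetyltransferase subunit, had values of 0.24 ± 0.11, -0.21 ± 0.12 and -0.23 ± 0.12 (adjusted p = 0.0964, 0.134 and 0.109).

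Of the 4 side-branch genes 3, 3 and 4 fell and 0, 1 and 0 rose. Bpgm, which makes bisphosphoglycerate, read 11.1, 15.3 and 13.1 against 6.38, 6.91 and 5.87 CPM in marrow, 25.8, 28.5 and 35.2 against 17.5, 25 and 15.2 CPM in GFP-positive bone and 26.4, 23.9 and 23 against 14.2, 13.6 and 13.1 CPM in GFP-negative bone, and was lower without overlap in each (-1.03 ± 0.19, -0.62 ± 0.16 and -0.84 ± 0.17, SE, edgeR, adjusted p = 0.000151, 0.00383 and 0.000591). Gpd2, the mitochondrial glycerol phosphate dehydrogenase, fell in marrow from 13.6, 16.9 and 16.6 to 11, 10.4 and 11.5 CPM and in GFP-negative bone from 25.5, 23.1 and 23.9 to 18, 16.6 and 14.5 CPM. In GFP-positive bone it rose from 32.4, 26.7 and 28.5 to 33.3, 35 and 49.5 CPM, with knockout replicate 3 the highest. The changes of Gpd2 were -0.52 ± 0.15, 0.42 ± 0.14 and -0.55 ± 0.15 (adjusted p = 0.0093, 0.0181 and 0.00557). The rise was lost without control replicate 2 or knockout replicate 3 (adjusted p 0.08 and 0.16) and became -0.41 (adjusted p = 0.0194) once the length trend described further on was removed.

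Pgm1 and Pgm2, phosphoglucomutases that link glucose phosphates to glycogen, parted ways in marrow. Pgm1 here is the gene on chromosome 4 (mm10 99929414 to 99987294, plus strand) and Pgm2 that on chromosome 5 (64092950 to 64128351, plus strand), since annotations differ in which symbol each carries. Pgm1 read 53.9, 39.2 and 42.9 against 51.3, 50.6 and 52.6 CPM in marrow, 99.7, 93.5 and 93.5 against 57.2, 47.8 and 50.2 CPM in GFP-positive bone and 47.4, 48.7 and 43.4 against 25.6, 21.9 and 25.3 CPM in GFP-negative bone. It fell in both bone subsets without overlap and did not pass in marrow (0.18 ± 0.11, -0.88 ± 0.11 and -0.94 ± 0.12, SE, edgeR, adjusted p = 0.182, 1.8e-06 and 2.3e-06). Pgm2 read 22.3, 16.7 and 20.9 against 12.1, 11.9 and 14.9 CPM in marrow, 23.5, 26.6 and 27.6 against 19.7, 16.3 and 23.8 CPM in GFP-positive bone and 27, 19.3 and 20.9 against 15.4, 15.7 and 17.6 CPM in GFP-negative bone. It fell in all 3, with overlap in GFP-positive bone (-0.63 ± 0.16, -0.39 ± 0.16 and -0.46 ± 0.17, adjusted p = 0.00334, 0.0495 and 0.028). The bone calls of Pgm2 were the least secure of the 15 shared falls, since 4 of 6 libraries in GFP-positive and 3 of 6 in GFP-negative bone each removed the call when left out (adjusted p 0.0804 to 0.246).

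Tested directly, the knockout effect differed between bone and marrow for a good part of the members, almost always towards a lower value in bone. Against marrow, the effect in GFP-positive bone was lower for 13 members and higher for 3 (Hk1, Hk2 and Gpd2), where 18.4% of all genes passed, 7.6% as lower and 10.8% as higher. The effect in GFP-negative bone was lower than in marrow for 11 members and higher for 1 (Hk1), beside 7.79% of all genes, 3.31% as lower and 4.49% as higher. These comparisons share the marrow libraries. Between the bone subsets 5 members differed, 4 of them higher in GFP-positive bone (Slc2a1, Hk1, Aldoc and Gpd2) and 1 lower (Pdk2), beside 6.08% of all genes, 4.98% as higher and 1.11% as lower. The effects on Pgk1 differed from marrow by -1.21 ± 0.14 in GFP-positive and -1.21 ± 0.15 in GFP-negative bone (SE, edgeR, adjusted p = 1.36e-05 and 4.03e-05), those on Pgam1 by -1.18 ± 0.13 and -1.25 ± 0.13 (5.1e-06 and 1.45e-05), and those on Tpi1 by -1.01 ± 0.14 and -1.15 ± 0.14 (7.63e-05 and 5.79e-05). Eno1 differed by -1.06 ± 0.22 and -1.69 ± 0.23 (0.00305 and 0.000117), and Pgm1 by -1.07 ± 0.15 and -1.12 ± 0.16 (0.000112 and 0.000174). For Slc16a3, Pkm, Eno3, Pdk3 and Bpgm no difference between bone and marrow passed. Slc16a3 came nearest between the bone subsets (0.83 ± 0.24, adjusted p = 0.0506), and passed without knockout replicate 2 or 3 of GFP-positive bone or knockout replicate 3 of GFP-negative bone (0.0356 to 0.0469).

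Several of these differences rest on single libraries or on the scaling. Those of Gpi1, Gapdh and Pdhb between GFP-positive bone and marrow lost their call when 7, 8 and 4 of the 12 libraries, each taken alone, were left out (adjusted p up to 0.102), and those of Slc2a1, Hk1 and Pdhb between GFP-negative bone and marrow when 8, 2 and 9 were (up to 0.121). The Hk1 difference between the bone subsets was lost without control replicate 1 of GFP-positive bone or knockout replicate 2 of GFP-negative bone (0.0535 and 0.0531). The TMM factors of the knockout bone libraries were 0.7389 to 0.8839 and those of the knockout marrow libraries 1.249 to 1.296. Scaled by library totals alone, the median gene moved by -0.52 in the difference between GFP-positive bone and marrow and by -0.37 in that between GFP-negative bone and marrow, and the members then stood at 2 higher and 19 lower, and 0 higher and 19 lower. The share of higher among all calls went from 58.7% to 13.5% and from 57.6% to 10.9%. Between the bone subsets it went from 81.8% to 62.2%, with members at 3 higher and 1 lower. DESeq2 size factors in edgeR gave 70.7% for GFP-negative bone against marrow and 70.7% between the bone subsets. For knockout against control, the median gene moved by 0.13, -0.37 and -0.23 in the 3 subsets, the share of higher calls went from 48.2% to 59.6%, from 50.7% to 30.9% and from 45.6% to 30.8%, and the members stood at 9 higher and 13 lower, 4 and 25, and 3 and 25. As the share of all genes called with library totals alone is not given, whether the members stood out there cannot be read from these counts.

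Ratios of related genes within a library do not depend on such scaling. Each count was divided by the merged exon length of its gene and the 2 genes were set against each other within each library. Of 39 ratios (13 pairs in 3 subsets), 28 separated the 3 knockout from the 3 control libraries without overlap. No share over other gene pairs is given, and of single genes 54.7%, 57.6% and 54.4% separated in the 3 subsets. The ratios are not independent of each other, since Pfkp, Eno1 and Pdk2 each served in several pairs. With 3 against 3 libraries the exact two-sided permutation test cannot go below 0.10, which it gave for each of these 28. Slc2a3 gained on Slc2a1 in every subset. Its share of the pair was 25.1% ± 1.22 (SD, n = 3) in control and 46.5% ± 10.2 in knockout marrow, 4.92% ± 0.184 and 22.2% ± 4.63 in GFP-negative bone, and 0.517% ± 0.226 and 1.27% ± 0.403 in GFP-positive bone. Hk2 gained on Hk1 in the same way, from 12.6% ± 3.48 to 23.2% ± 1.27 in marrow, from 29.6% ± 4.32 to 47.9% ± 8.03 in GFP-negative bone and from 35.7% ± 3.64 to 56.6% ± 4.49 in GFP-positive bone. Whether Hk2 passed Hk1 in GFP-positive bone depends on the length used, since per longest coding transcript its share there was 23.2% in controls and 41.5% in knockouts.

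The lactate pairs moved against the exporting partner. The share of Slc16a3 in the sum with Slc16a1 went from 60.8% ± 1.72 to 25.8% ± 4.89 in GFP-positive bone, from 46.5% ± 1.18 to 11.7% ± 1.34 in GFP-negative bone and from 11.7% ± 2.31 to 3.90% ± 1.64 in marrow. Knockout GFP-negative bone thus had the mean share of control marrow. The log2 ratio of Ldha to Ldhb moved by -0.69 in GFP-positive bone and -0.94 in GFP-negative bone without overlap (exact permutation p = 0.10), and by -0.63 in marrow with overlap (exact permutation p = 0.20), where the share of Ldhb was 36.5% ± 3.87 in controls and 47.0% ± 6.49 in knockouts. Among the kinases, Pdk3 lost to Pdk2 in each subset (-0.81, -0.44 and -0.99). Pgm1 gained on Pgm2 in marrow (0.82) and lost in bone (-0.50 and -0.49), and Pfkl gained on Pfkp in marrow (0.79), lost in GFP-negative bone (-0.62) and overlapped in GFP-positive bone (-0.21). The Pfkl to Pfkp value in GFP-negative bone became 0.25 once the length trend described next was removed.

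**Figure D4:**
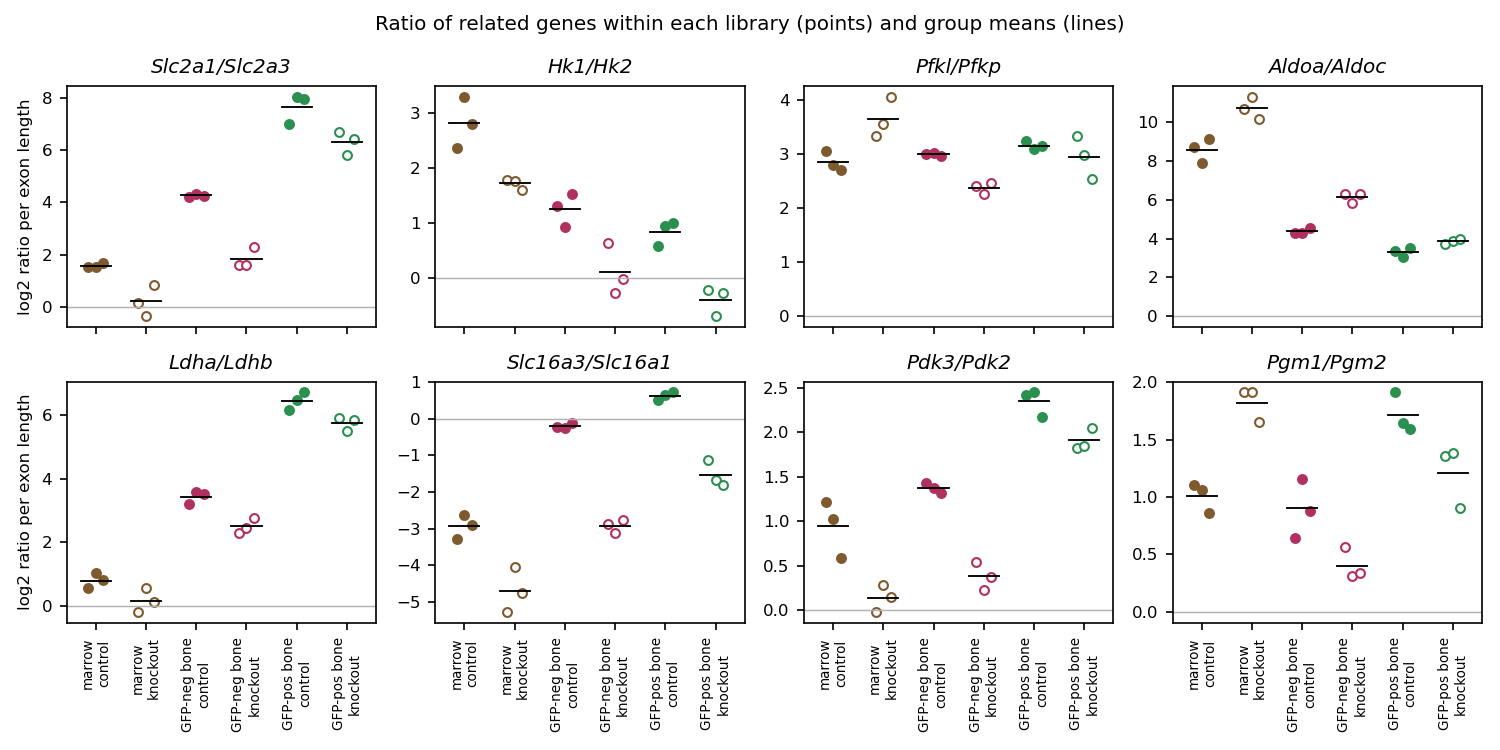
Log2 ratio of 8 pairs of related genes per exon length in each library (points, filled for controls, open for knockouts), with group means as lines. The Hk1 to Hk2 and Slc2a1 to Slc2a3 ratios are lower in the knockouts of all 3 subsets, while Pgm1 to Pgm2 rises in marrow and falls in bone.

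Transcript length moved with the knockout across all genes. With the 15516 tested genes put in 10 equal groups by the length of their longest coding transcript, the median knockout effect rose from -0.53, -0.46 and -0.61 in the shortest group (median 741 bases) to 0.85, 1.26 and 0.92 in the longest (median 8033 bases). The members had a median length of 2795 bases, near the 2947 of all tested genes. But the 15 members that fell in all 3 subsets had a median of 2115 bases and the 3 that rose in all 3 a median of 4801. Slc16a3, at 4335 bases, fell where the group of its length (4108 to 4915 bases) had medians of 0.31, 0.44 and 0.32.

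With a smooth length trend taken out of each library, 6 members were higher and 13 lower in marrow, 8 and 22 in GFP-positive bone and 4 and 23 in GFP-negative bone (edgeR). The share of all genes called in this fit is not given here. Whether the members stand out in it thus cannot be read from these counts. In marrow the calls of Hk2 (0.28, adjusted p = 0.326), Pfkfb3 (0.74, 0.0742), Tpi1 (-0.11, 0.417), Pgam1 (-0.22, 0.0668), Ldha (-0.19, 0.0913), Pdhb (-0.07, 0.508) and Pgm2 (-0.41, 0.0545) were lost, and Ldhb (0.51, 0.0223) and Pgm1 (0.39, 0.00794) passed as higher. In GFP-positive bone Eno3 (-0.55, 0.0802), Pdk2 (-0.21, 0.139) and Pgm2 (-0.26, 0.207) were lost, and Slc16a1 (-0.48, 0.000453) and Dlat (-0.49, 0.00234) passed as lower. In GFP-negative bone Hk1 (0.08, 0.636), Pfkfb3 (0.40, 0.327), Ldhb (-0.09, 0.742) and Pgm2 (-0.23, 0.313) were lost, and Pdk1 (-0.85, 0.000387) and Dlat (-0.37, 0.0187) passed as lower. Of the members that fell in all 3 subsets, Gpi1, Pfkp, Aldoc, Gapdh, Pgk1, Pkm, Slc16a3, Pdk3 and Bpgm kept their calls in all 3. Of those that rose in all 3, only Slc2a3 did. In the bone subsets the falls of Pgk1, Pgam1, Tpi1, Ldha and Eno1 passed with and without the trend.

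**Figure D5:**
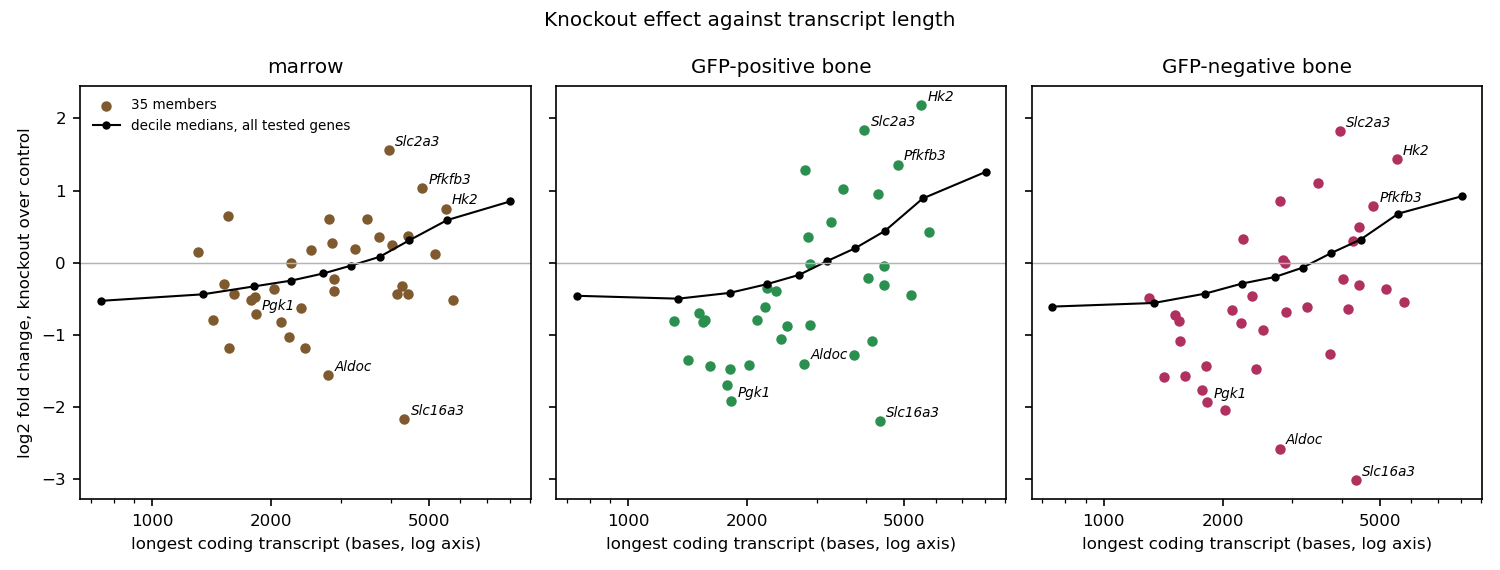
Knockout effect (log2 fold change, vertical axis) of the 35 members (coloured points) against the length of the longest coding transcript (bases, log axis) in the 3 subsets, with medians of all tested genes in 10 length groups (black line). The line rises with length in each subset; Slc16a3, Aldoc and Pgk1 lie far below it and Slc2a3 above it.

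Genes around the pathway were read from lists that hold no member. In the tricarboxylic acid cycle 10, 12 and 13 of 16 genes were lower and 0, 1 and 0 higher (median log2 -0.32, -0.63 and -0.61, against -0.04, 0.03 and -0.07 for all genes). With the length trend removed 6, 11 and 10 were lower and 1, 0 and 0 higher (medians -0.10, -0.53 and -0.44), and with library totals alone 5, 15 and 15 were lower and 0 higher in each. The shares of all genes called in those fits are not given. The succinate dehydrogenase subunits Sdhd (-0.69 ± 0.08, -1.11 ± 0.08 and -1.05 ± 0.08, SE) and Sdhb (-0.74 ± 0.09, -1.11 ± 0.09 and -0.94 ± 0.09) and the succinyl-CoA ligase subunit Suclg1 (-0.47 ± 0.10, -1.17 ± 0.10 and -0.88 ± 0.10) had the smallest adjusted p (edgeR, 4.96e-09, 1.48e-08 and 2.31e-08 at the lowest). Of 20 genes of the pyruvate carrier, dehydrogenase regulators, carboxylation and malate shuttle, 10, 12 and 14 were lower and 4, 5 and 2 higher. Cytosolic malate dehydrogenase Mdh1 changed by -0.65 ± 0.08, -0.79 ± 0.07 and -1.14 ± 0.08 and malic enzyme Me2 by -1.57 ± 0.13, -0.51 ± 0.13 and -0.54 ± 0.13. The ATP citrate lyase gene Acly rose in marrow and GFP-positive bone (0.36 ± 0.08 and 0.91 ± 0.08), with a value of -0.06 ± 0.08 in GFP-negative bone (adjusted p = 0.608).

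In the pentose phosphate pathway 4, 6 and 6 of 10 genes were lower and 2, 1 and 1 higher, to be read beside the shares of all genes above. Taldo1, transaldolase, changed by -0.68 ± 0.08, -0.76 ± 0.08 and -1.23 ± 0.08 (SE, edgeR, smallest adjusted p = 3.34e-09), and Rpe by -0.30 ± 0.12, -1.23 ± 0.13 and -1.15 ± 0.13, while H6pd, the dehydrogenase of the endoplasmic reticulum, rose by 1.52 ± 0.17, 0.74 ± 0.18 and 1.35 ± 0.19. Glycogen and UDP-glucose genes had no common direction (4 and 4, 4 and 4, and 2 and 6 of 15 higher and lower). Ugp2, which makes UDP-glucose, fell in bone (-1.0 ± 0.10 and -1.26 ± 0.11). The phosphorylase kinase gene Phka2 rose in GFP-positive bone (1.68 ± 0.15). Of 6 tested gluconeogenesis genes 3, 3 and 3 were lower and 1, 0 and 0 higher. G6pc3, a glucose phosphatase, fell in each subset (-0.40 ± 0.12, -0.47 ± 0.11 and -0.87 ± 0.12).

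Of 23 tested other isozymes and carriers, 6, 8 and 7 were lower and 5, 4 and 2 higher. Of all genes tested, 47.9%, 51.3% and 47.1% passed in either direction, so this list did not stand out by its number of calls. Bsg (basigin), the partner that brings Slc16a carriers to the membrane, fell by log2 values of -0.84 ± 0.09, -1.27 ± 0.09 and -0.97 ± 0.09 (SE, edgeR, adjusted p = 4.73e-07, 3.29e-09 and 9.08e-08), and Pgp, a phosphoglycolate phosphatase, by -0.50 ± 0.12, -1.67 ± 0.12 and -1.22 ± 0.12. Gpd1, the cytosolic glycerol phosphate dehydrogenase, rose from 10.4 ± 3.05 to 113 ± 24.3 CPM in marrow (SD, n = 3), at 3.44 ± 0.22 on the log2 scale (adjusted p = 5.58e-10). In the same marrow libraries 7 adipocyte markers summed to 3000 to 3917 CPM in controls, where Lep was at 0, and 8247 to 11794 CPM in knockouts, and their part in the Gpd1 rise was not tested. More of the listed regulators were higher than lower, and what they do to the enzymes here was not tested. Of 17 regulators 12, 11 and 10 were higher and 1, 4 and 1 lower. Epas1, a hypoxia-inducible factor, rose by 2.56 ± 0.15, 1.79 ± 0.16 and 2.64 ± 0.16 (adjusted p = 9.34e-10, 5.93e-08 and 1.61e-09), and its partner Arnt by 0.65 ± 0.08, 0.75 ± 0.08 and 0.93 ± 0.08. Hif3a, of the same family, rose in marrow from 0.268 ± 0.159 to 8.96 ± 2.2 CPM. With the length trend removed 10, 5 and 5 of the regulators were higher and 1, 4 and 2 lower, in a fit whose share of all genes called is not given.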

How the data were processed

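RNA of 18 sorted-cell samples was sequenced after SMART-Seq v4 amplification, per the labels' protocols. The authors deposited raw counts of reads per gene, and the submitters' processing notes list STAR, featureCounts, DESeq2 and mm10. Strand and the treatment of reads with several matches are not given in the sources used here. From the counts, genes were kept by filterByExpr (minimum count 10, minimum total 15), which left 15516, and scaled by TMM. One edgeR 4.0.16 quasi-likelihood model (R 4.3.3) over all 18 libraries, with a term for each group and 12 residual degrees of freedom, gave log2 fold changes. The SE is the log2 fold change divided by the square root of F, and p-values were adjusted over all genes tested by Benjamini-Hochberg, with 0.05 as threshold. The script was tested on simulated data. Near-identical copies were found with BLAST 2.17.0 (at least 95% identity over 200 bases). Ratios of related genes had 0.5 added to each count and were compared by an exact two-sided permutation test. Promoter windows are from RefSeq. Alternatives were DESeq2 1.42.0, other scalings, no low-count filter, fits on only the libraries compared, a length trend (natural spline, 5 df), a replicate block and leaving out each library. Members, gene lists and tests were chosen with earlier results of these data known. All 35 members are counted, and values per library are given for those called in all 3 knockout comparisons, in opposite directions, in a difference between subsets, or in a ratio described. Of each other list, up to 3 genes with the smallest p and a mean of at least 5 CPM are named, besides the carriers and Adpgk set beside the members. One gene that this rule would name is not reported here.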

Additional observations from a re-analysis of the deposited data

Results flagged for a closer look

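The knockout effect on 16 members differed between GFP-positive bone and marrow by the direct test of that difference (edgeR, adjusted p under 0.05). On the log2 scale the effect in GFP-positive bone was higher for Hk1 (1.27), Hk2 (1.43) and Gpd2 (0.94). It was lower for Gpi1 (-0.48), Pfkl (-1.63), Pfkp (-0.65), Aldoa (-1.48), Tpi1 (-1.01), Gapdh (-0.55), Pgk1 (-1.21), Pgam1 (-1.18), Eno1 (-1.06), Ldha (-1.0), Ldhb (-0.97), Pdhb (-0.41) and Pgm1 (-1.07).

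Between GFP-negative bone and marrow the same test picked out 12 members. The effect in bone was higher for Hk1 (0.62) and lower for Slc2a1 (-0.82), Pfkl (-1.62), Aldoa (-1.45), Tpi1 (-1.15), Gapdh (-0.79), Pgk1 (-1.21), Pgam1 (-1.25), Eno1 (-1.69), Ldha (-0.95), Pdhb (-0.44) and Pgm1 (-1.12). The marrow libraries are shared with the comparison above. Between the bone subsets, the effect was higher in GFP-positive bone for Slc2a1 (1.19), Hk1 (0.65), Aldoc (1.18) and Gpd2 (0.97) and lower for Pdk2 (-0.69).

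Reads on near-identical copies, which are outside the main counts of the members, stood above the control level in some knockout libraries. The highest share was 23.6% for the copies of Eno1, where controls had at most 12.1%, and 7.73% for those of Gapdh, where controls had at most 1.77%.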

How the results depend on the processing

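Members called in the knockout comparisons (24, 31 and 29) numbered 19 to 26, 27 to 30 and 25 to 28 with each library left out. The differences between subsets (16, 12 and 5) gave 13 to 17, 9 to 12 and 4 to 6, the control subsets (27, 24 and 30) 26 to 27, 19 to 22 and 29 to 31, and the isozyme ratios without overlap (28) 28 to 30. With library totals alone the difference between GFP-negative bone and marrow had 19 members, and with only the libraries compared that between the bone subsets had 8. Directions turned under library totals alone for Pdha1 in GFP-positive bone (-0.04), for the differences of Pkm (-0.40), Pdk3 (-0.50) and Pdha1 (-0.44) between GFP-positive bone and marrow, and for Aldoa (-0.03) and Pdhb (-0.06) between control GFP-negative bone and marrow. With the length trend removed they turned for Gpd2 in GFP-positive bone (-0.41, and -0.41 with the replicate block added) and for Pfkl over Pfkp in GFP-negative bone (0.25). A length trend over coding transcripts, chosen after seeing the data, turned Gpd2 (-0.47) and Pdhb in marrow (0.04). The causes were not tested. DESeq2 called 24, 30 and 26 members. Replicate numbers were not taken to pair samples, since not every same-numbered pair correlated by over 0.1 across all genes (-0.063 to 0.083 between knockout and control, 0.032 to 0.119 among control subsets, 0.097 to 0.206 among knockout subsets). Among the 7969 genes with a mean over 10 CPM, all 9 pairs of control subsets (0.113 to 0.315) and all 9 of knockout subsets (0.175 to 0.407) did. Between knockout and control 2 of 9 did (-0.123 to 0.282). The main model leaves any such link between subsets of a genotype out. Within a genotype each library correlated best with its own number in 9 of 9 cases among controls and 9 of 9 among knockouts, a hint from the data and not the design. With a replicate block 25, 31 and 29 members were called in the knockout comparisons, and with the block nested in genotype the differences between subsets had 19, 13 and 7. Strand, multi-matching reads and 3 libraries a group limit the precision of low members such as Aldoc in marrow and Eno2.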
